A study of Mus musculus with 12 samples.

Results

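The mitochondrial iron-sulfur cluster assembly genes described here are *Iscu*, *Nfs1*, *Isca1*, *Isca2*, *Glrx5*, *Lyrm4*, *Bola3*, *Nfu1* and *Fdx1*. They were taken by symbol, 9 of the 55401 genes counted in each library, and all 9 passed the filter on low counts that left 16540 genes for testing. RNA was measured in subcutaneous white adipose tissue (scWAT), the fat under the skin, from 12 female mice. *Jmjd1a* +/+ mice and *Jmjd1a* HY/HY mice, in which both alleles of the H3K9 demethylase JMJD1A carry the H1122Y substitution that disables the demethylase, were each held at 30°C or at 8°C for 1 week after a week at 30°C, with 3 mice in each of the 4 groups. The mice were 16 weeks old at the start of the treatment and were caged singly. The *Jmjd1a* HY/HY mice carried the mutation in every tissue. The females of the study came from 1 of its lines, made by CRISPR/Cas9 in C57BL/6J eggs. The comparisons ask how cold changes the transcripts of the assembly pathway, and whether that change differs when the demethylase is inactive.

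Iron-sulfur clusters are small inorganic cofactors that carry electrons or hold substrates in enzymes. In mitochondria the cysteine desulfurase NFS1, held stable by LYRM4 (also called ISD11), releases sulfur from cysteine, and the cluster is first put together on the scaffold ISCU with electrons delivered by a ferredoxin. A chaperone pair moves the new 2Fe-2S cluster to the glutaredoxin GLRX5, ISCA1 and ISCA2 act in the making of 4Fe-4S clusters, and BOLA3 and NFU1 act late, when clusters are placed into client enzymes such as complexes I and II and lipoyl synthase. Fat that makes heat is rich in mitochondria and so in these clients.

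The RefSeq promoter windows (GRCm38.p6, 250 bases before to 50 bases after the annotated start) were searched on both strands for 3 motifs of factors known for nuclear genes of mitochondria. These were AAGGTCA, bound by ESRRA, CCGGAAG, the ETS core bound by GABPA, and GCATGCG, the core bound by NRF1. Windows were given for 8 of the 9 members, all but *Iscu*, and for *Bola3* at 3 start sites. The ESRRA motif was in 1 of the 8 (*Isca1*) and in 5.38% of 27025 genes, the ETS core in 3 of the 8 (*Isca1*, *Isca2* and *Nfs1*) and in 9.93% of the genes, and the NRF1 core in 0 of the 8 and in 4.01% of the genes. The 3 members with a match are shown first, at chr13:59769740-59770039 on the minus strand for *Isca1*, chr12:84773020-84773319 on the plus strand for *Isca2* and chr2:156144137-156144436 on the minus strand for *Nfs1*. *Bola3* (first start site, chr6:83348897-83349196, plus strand) and *Fdx1* (chr9:51963553-51963852, minus strand) follow because their cold responses differed between the genotypes. Capitals mark motif matches.
Isca1: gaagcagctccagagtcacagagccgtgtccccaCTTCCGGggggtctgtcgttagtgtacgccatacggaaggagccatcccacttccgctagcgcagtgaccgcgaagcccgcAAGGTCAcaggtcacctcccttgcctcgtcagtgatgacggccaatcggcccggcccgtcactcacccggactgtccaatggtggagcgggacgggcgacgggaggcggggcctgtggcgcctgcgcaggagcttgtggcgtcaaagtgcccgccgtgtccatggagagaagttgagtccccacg
Isca2: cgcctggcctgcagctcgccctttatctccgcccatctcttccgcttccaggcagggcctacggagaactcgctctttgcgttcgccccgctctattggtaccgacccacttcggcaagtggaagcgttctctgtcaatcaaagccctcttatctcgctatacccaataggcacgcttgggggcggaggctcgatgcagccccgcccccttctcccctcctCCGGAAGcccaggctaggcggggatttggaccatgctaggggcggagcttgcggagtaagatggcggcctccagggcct
Nfs1: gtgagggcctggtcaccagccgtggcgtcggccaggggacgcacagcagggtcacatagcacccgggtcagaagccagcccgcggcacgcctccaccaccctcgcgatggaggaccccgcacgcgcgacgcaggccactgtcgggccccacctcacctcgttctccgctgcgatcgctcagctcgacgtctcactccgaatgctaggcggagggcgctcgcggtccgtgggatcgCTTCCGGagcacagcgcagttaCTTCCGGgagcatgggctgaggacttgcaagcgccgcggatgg
Bola3: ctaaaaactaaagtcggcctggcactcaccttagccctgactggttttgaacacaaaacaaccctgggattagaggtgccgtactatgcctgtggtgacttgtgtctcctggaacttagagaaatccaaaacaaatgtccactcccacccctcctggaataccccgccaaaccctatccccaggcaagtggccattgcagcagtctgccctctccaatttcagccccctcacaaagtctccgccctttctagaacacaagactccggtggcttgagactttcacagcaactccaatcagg
Fdx1: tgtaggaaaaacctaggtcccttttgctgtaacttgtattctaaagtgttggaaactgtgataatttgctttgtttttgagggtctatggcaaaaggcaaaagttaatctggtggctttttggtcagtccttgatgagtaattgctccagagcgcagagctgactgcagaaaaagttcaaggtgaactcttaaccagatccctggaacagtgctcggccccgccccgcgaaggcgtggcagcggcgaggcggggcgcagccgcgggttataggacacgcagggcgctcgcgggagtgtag
With the start counted as 0, the ESRRA motif in *Isca1* lay from -135 to -129 and its ETS core, on the reverse strand, from -216 to -210. The ETS core of *Isca2* lay from -29 to -23, and *Nfs1* had one from -15 to -9 and another from 7 to 13, both on the reverse strand. The matches did not overlap one another. A match is a description of the letters in the window only.

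The 12 libraries held 13592629 to 26352081 counts on the sense strand, and each replicate is 1 mouse. Levels are given as CPM, counts scaled to library totals adjusted by the TMM method, so that libraries can be compared. The lowest library correlation within a group was 0.967. *Kdm3a*, the symbol under which *Jmjd1a* is counted, lay between 35.6 and 61.6 CPM in the 12 libraries. At 8°C it was at 35.6, 42.9 and 41.1 CPM in the *Jmjd1a* +/+ mice. In the *Jmjd1a* HY/HY mice at 8°C it was at 45.8, 43.1 and 45.3 CPM, without overlap but with a narrow gap. Counts per gene do not tell the HY allele from the normal one. In the *Jmjd1a* +/+ mice at 30°C replicate 3 had the highest level of its group in 8 of the 9 members, and in the *Jmjd1a* HY/HY mice at 30°C replicate 3 had the highest in 7. Those 2 libraries also held the highest summed CPM of 6 thermogenic adipocyte markers at 30°C, 198 and 231, against 60.8 to 101 in the other 4 libraries at 30°C. They were also highest at 30°C for 7 white adipocyte markers, 42300 and 48000 CPM against 21800 to 29700. For 4 erythroid markers they held 247 and 348 CPM against 96 to 153. For 7 mammary epithelium markers they were the lowest of their groups, at 2430 and 598 CPM. Whether any of these cell types had a part in their member levels was not tested.

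Levels per kilobase of exon let genes be compared roughly, since the length joins all annotated exons, including any that the expressed transcripts lack. By this measure *Glrx5* was the most abundant member in the *Jmjd1a* +/+ mice at 30°C, at 63.5 ± 14.8 CPM per kb (SD, n = 3). It was followed by *Isca2* at 53.9 ± 8.73 and *Iscu* at 36 ± 8.62. *Nfu1* (18.8 ± 2.19), *Isca1* (17.4 ± 3.01), *Fdx1* (13.7 ± 0.388), *Nfs1* (11.2 ± 0.704) and *Bola3* (10.2 ± 1.88) followed, and *Lyrm4* was lowest at 5.45 ± 0.854 CPM per kb. Neighbours in this order overlapped between mice for *Glrx5* and *Isca2*, for *Nfu1* and *Isca1* and for *Nfs1* and *Bola3*. At 8°C *Glrx5*, *Isca2* and *Iscu* kept the first 3 places in the *Jmjd1a* +/+ mice, at 128 ± 9.55, 95.1 ± 13.5 and 79.4 ± 16.7 CPM per kb, and *Bola3* came next at 37.8 ± 2.62. In the cold *Jmjd1a* HY/HY mice *Bola3* was at 17.5 ± 2.04 CPM per kb, below *Isca1* (23.1 ± 1.48) and *Nfu1* (22.4 ± 0.768). The mean level was highest in the *Jmjd1a* +/+ mice at 8°C in 8 of the 9 members, and in all of these but *Lyrm4* the 3 mice lay above every mouse of the group next in order.

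**Figure D1:**
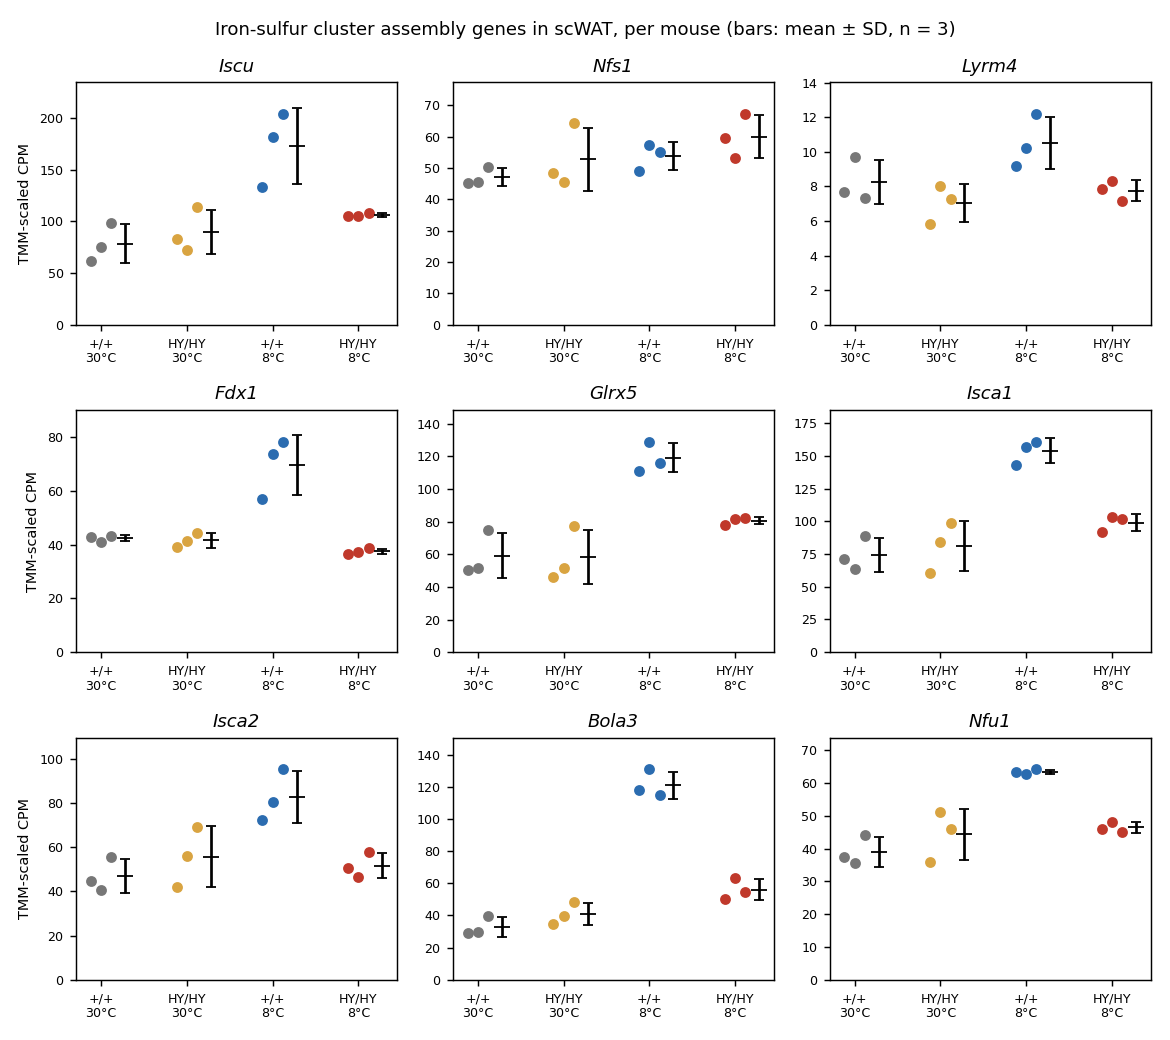
TMM-scaled CPM of each of the 9 assembly genes in each mouse (points), with the mean and SD of the 3 mice of each genotype and temperature beside them; every axis starts at 0. In 7 panels the *Jmjd1a* +/+ mice at 8°C lie above all other mice, whereas *Nfs1* and *Lyrm4* overlap between groups.

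The desulfurase and its partner showed no called change by cold in either genotype. *Nfs1* (ENSMUSG00000027618.17, chromosome 2 from 156123637 to 156144202), which makes the sulfur available, was at 45.1, 45.5 and 50.4 CPM in the *Jmjd1a* +/+ mice at 30°C and at 48.9, 57.3 and 55.2 CPM at 8°C. In the *Jmjd1a* HY/HY mice it was at 48.2, 45.6 and 64.2 CPM at 30°C and at 59.6, 53.2 and 67.2 CPM at 8°C. The *Jmjd1a* +/+ mice at 8°C overlap with each of the other groups. The log2 fold change by cold was 0.20 in the *Jmjd1a* +/+ mice (95% interval -0.103 to 0.496, adjusted p = 0.317, by the quasi-likelihood test of edgeR, adjusted over all 16540 genes as are all adjusted p-values that follow) and 0.19 in the *Jmjd1a* HY/HY mice (adjusted p = 0.559), and the difference of these responses was -0.01 (adjusted p = 0.991). *Romo1* starts on the opposite strand within *Nfs1*, and 2 to 11 counts per library fell on the strand opposite to *Nfs1*.

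*Lyrm4* (ENSMUSG00000046573.7, chromosome 13 from 35978797 to 36117357) was the least counted member, with 88 to 270 counts per library, which limits its precision. It was at 7.7, 9.73 and 7.33 CPM in the *Jmjd1a* +/+ mice at 30°C and at 9.21, 10.2 and 12.2 CPM at 8°C, and at 5.84, 8.01 and 7.27 CPM and 7.83, 8.31 and 7.14 CPM in the *Jmjd1a* HY/HY mice. The groups at 8°C do not overlap, whereas the temperatures do in each genotype. The log2 fold change by cold was 0.35 in the *Jmjd1a* +/+ mice (95% interval -0.023 to 0.726, adjusted p = 0.154), and at 8°C the genotypes differed by -0.44 (adjusted p = 0.156). The pseudogenes *Tmed10-ps* and *Gm18132* lie within the bounds of *Lyrm4*.

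The scaffold *Iscu* (ENSMUSG00000025825.12, chromosome 5 from 113772418 to 113778288) was at 61.5, 75 and 98.6 CPM in the *Jmjd1a* +/+ mice at 30°C and at 133, 182 and 204 CPM at 8°C. Every mouse at 8°C was above every mouse at 30°C, and *Iscu* rose 2.21-fold (log2 fold change 1.14, standard error 0.211, adjusted p = 0.00299). In the *Jmjd1a* HY/HY mice it was at 83.2, 72.3 and 114 CPM at 30°C and at 105, 105 and 108 CPM at 8°C, with overlap between the temperatures (log2 fold change 0.24, adjusted p = 0.634). At 8°C no *Jmjd1a* HY/HY mouse reached the lowest *Jmjd1a* +/+ mouse, yet the difference of -0.71 did not pass (adjusted p = 0.0651). With DESeq2 it did (adjusted p = 0.018), and also in 6 other settings, among them those without replicate 3 of either genotype at 30°C (0.0434 and 0.0343) and without replicate 1 of the *Jmjd1a* +/+ mice at 8°C (0.0495).

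*Fdx1* (ENSMUSG00000032051.9, chromosome 9 from 51943023 to 51963602) encodes a mitochondrial ferredoxin, which passes on electrons taken from ferredoxin reductase. It varied little at 30°C, at 42.7, 41 and 43.4 CPM in the *Jmjd1a* +/+ mice and 39, 41.4 and 44.4 CPM in the *Jmjd1a* HY/HY mice. At 8°C it was at 57.1, 73.9 and 78.4 CPM in the *Jmjd1a* +/+ mice and at 36.7, 37.1 and 38.7 CPM in the *Jmjd1a* HY/HY mice. All the cold *Jmjd1a* +/+ mice thus lay above every mouse at 30°C. All the cold *Jmjd1a* HY/HY mice lay below every mouse at 30°C, but with a narrow gap (38.7 against 39 CPM). *Fdx1* rose by cold in the *Jmjd1a* +/+ mice (log2 fold change 0.72, standard error 0.114, adjusted p = 0.00108), while in the *Jmjd1a* HY/HY mice its log2 fold change was -0.15 (adjusted p = 0.577). At 8°C *Fdx1* was lower in the *Jmjd1a* HY/HY mice by -0.90 on the log2 scale (standard error 0.115, adjusted p = 0.00167), a call that held in every alternative run. The cold responses differed by -0.87 (standard error 0.161, adjusted p = 0.0218). This last call was lost without replicates 1 or 2 of the *Jmjd1a* +/+ mice at 30°C (adjusted p = 0.0652 and 0.0609), without replicates 2 or 3 of those at 8°C (0.0706 and 0.0682), without replicates 1, 2 or 3 of the cold *Jmjd1a* HY/HY mice (0.0766, 0.0599 and 0.0607), and with library totals in place of TMM (0.0663).

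*Glrx5* (ENSMUSG00000021102.4, chromosome 12 from 105032618 to 105040911), which takes over the 2Fe-2S cluster, was at 50.5, 51.7 and 74.9 CPM in the *Jmjd1a* +/+ mice at 30°C and at 111, 129 and 116 CPM at 8°C. It rose 2.01-fold by cold (log2 fold change 1.01, standard error 0.193, adjusted p = 0.00366). In the *Jmjd1a* HY/HY mice it was at 46.3, 51.5 and 77.5 CPM at 30°C and at 78, 81.3 and 82.2 CPM at 8°C. These groups do not overlap, but 1 mouse at 30°C lies close below the cold mice, and the log2 fold change of 0.47 did not pass (unadjusted p = 0.0328, adjusted p = 0.294). Without that library, replicate 3 of the *Jmjd1a* HY/HY mice at 30°C, *Glrx5* was called higher at 8°C in this genotype (log2 fold change 0.72, adjusted p = 0.0337). At 8°C the genotypes differed by -0.56 (adjusted p = 0.103) with no overlap. The lncRNA *Gm46374* overlaps *Glrx5*, so read pairs in the shared part may have been left uncounted.

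The A-type proteins ISCA1 and ISCA2 work together. *Isca1* (ENSMUSG00000044792.7, chromosome 13 from 59755415 to 59769789) was at 71.6, 63.3 and 88.7 CPM in the *Jmjd1a* +/+ mice at 30°C and at 143, 157 and 161 CPM at 8°C. In the *Jmjd1a* HY/HY mice it was at 60.5, 84.1 and 98.7 CPM at 30°C and at 91.6, 103 and 102 CPM at 8°C. *Isca1* rose 2.06-fold in the *Jmjd1a* +/+ mice (log2 fold change 1.04, standard error 0.172, adjusted p = 0.00143), with a log2 fold change of 0.29 in the *Jmjd1a* HY/HY mice (adjusted p = 0.466).

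*Isca2* (ENSMUSG00000021241.7, chromosome 12 from 84773230 to 84775089) was at 44.5, 40.7 and 55.3 CPM in the *Jmjd1a* +/+ mice at 30°C and at 72, 80.5 and 95.2 CPM at 8°C, and rose by 0.82 on the log2 scale (standard error 0.182, adjusted p = 0.00787). In the *Jmjd1a* HY/HY mice it was at 42.1, 55.8 and 69.2 CPM at 30°C and at 50.6, 46.5 and 57.8 CPM at 8°C, so that the cold mice lay within the range of those at 30°C (log2 fold change -0.11, adjusted p = 0.822). At 8°C both were lower in the *Jmjd1a* HY/HY mice without overlap, *Isca1* by -0.64 (standard error 0.171, adjusted p = 0.0441) and *Isca2* by -0.68 (standard error 0.182, adjusted p = 0.0442). Both calls sit near the limit. They were lost without replicate 1 of the *Jmjd1a* +/+ mice at 30°C (adjusted p = 0.0634 for *Isca1* and 0.0632 for *Isca2*), without replicate 2 of the *Jmjd1a* HY/HY group at 30°C (0.0531 and 0.0542), without any single library at 8°C (0.0856 to 0.157 for *Isca1* and 0.066 to 0.176 for *Isca2*), and with library totals, where the fold limit was not met (log2 fold change -0.50 and -0.54).

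The late factor *Bola3* (ENSMUSG00000045160.14, chromosome 6 from 83349147 to 83360136) had the largest change of the 9. It was at 28.8, 29.8 and 39.7 CPM in the *Jmjd1a* +/+ mice at 30°C and at 118, 131 and 115 CPM at 8°C, a 3.71-fold rise (log2 fold change 1.89, standard error 0.157, adjusted p = 2.33e-05). In the *Jmjd1a* HY/HY mice it was at 34.8, 39.8 and 48.3 CPM at 30°C and at 50.4, 63.3 and 54.6 CPM at 8°C. The 4 groups fall in 3 steps, with the mice at 30°C lowest, the cold *Jmjd1a* HY/HY mice next and the cold *Jmjd1a* +/+ mice highest, and only the groups at 30°C overlap. The log2 fold change by cold in the *Jmjd1a* HY/HY mice was 0.45 (unadjusted p = 0.0118, adjusted p = 0.217). At 8°C *Bola3* was lower in the *Jmjd1a* HY/HY mice by -1.11 (standard error 0.154, adjusted p = 0.00229), and the cold responses differed by -1.44 (standard error 0.216, adjusted p = 0.0113). These 3 calls of *Bola3* held in every alternative run.

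*Nfu1* (ENSMUSG00000029993.16, chromosome 6 from 87009234 to 87028461), which carries clusters to late clients, varied least of the 9 in the cold *Jmjd1a* +/+ mice, at 63.4, 62.9 and 64.3 CPM, against 37.4, 35.7 and 44.3 CPM at 30°C. It rose by 0.70 on the log2 scale (standard error 0.128, adjusted p = 0.00271). In the *Jmjd1a* HY/HY mice it was at 35.8, 51.3 and 46.1 CPM at 30°C and at 46.1, 48.3 and 45.2 CPM at 8°C, with a log2 fold change of 0.07 (adjusted p = 0.844). At 8°C the genotypes did not overlap. The difference of -0.45, a fold change of 0.732, missed both the fold limit and the limit on adjusted p (0.0546).

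Over the members together, 7 of 9 rose and 0 fell by cold in the *Jmjd1a* +/+ mice, where 10.3% of all genes tested were called higher and 6.93% lower. The same 7 had no overlap between the temperatures, against 20.7% of all genes with no overlap in this direction. For each of them the exact permutation test gave a two-sided p of 0.1, the smallest that 3 mice against 3 allow. The median log2 fold change was 0.82 in the members and -0.069 in all genes. With library totals in place of TMM the median of all genes moved to -0.406 and that of the members to 0.489, and 4 of the 9 were then called higher, with *Fdx1*, *Isca2* and *Nfu1* under the fold limit at positive log2 fold changes of 0.38, 0.49 and 0.37. In bulk tissue, a change in the share of a cell type and a change in RNA per cell cannot be told apart.

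By cold 0 of 9 members were called in the *Jmjd1a* HY/HY mice with edgeR, where 0.248% of all genes (41) were called in either direction, and DESeq2 also called 0. At an unadjusted p under 0.05 there were 2 members, *Glrx5* and *Bola3*, against 14.7% of all genes. The temperatures did not overlap in 3 of 9 members, *Glrx5* and *Bola3* with higher and *Fdx1* with lower levels at 8°C, against 9.33% of all genes in the first direction and 8.99% in the second. The median log2 fold change of the members was 0.187, and that of all genes -0.015. Without replicate 3 of the mice at 30°C the members' median was 0.356 and 1 member, *Glrx5*, was called.

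At 8°C 4 of 9 members (*Fdx1*, *Isca1*, *Isca2* and *Bola3*) were called lower and 0 higher in the *Jmjd1a* HY/HY mice, where 4.42% of all genes were called lower and 1.51% higher. In 8 of 9, all but *Nfs1*, the genotypes did not overlap with the *Jmjd1a* HY/HY mice lower, against 19% of all genes in this direction. The median log2 fold change was -0.635 in the members and 0.012 in all genes. The count was 2 without any one of replicate 1 of the *Jmjd1a* +/+ mice and replicate 2 of the *Jmjd1a* HY/HY mice at 30°C, replicates 2 and 3 of the *Jmjd1a* +/+ mice and replicates 1, 2 and 3 of the *Jmjd1a* HY/HY mice at 8°C. Since the cold *Jmjd1a* +/+ mice enter this comparison and that of the temperatures, chance differences in these 3 libraries move both.

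At 30°C the genotypes overlapped in all 9 members, whereas 18.3% of all genes had no overlap. None was called with edgeR, where 1% of all genes (166) were called in either direction, and there were 0 members at an unadjusted p under 0.05, against 18.6% of all genes, and 0 with DESeq2. The log2 fold changes ranged from -0.23 for *Lyrm4* to 0.32 for *Bola3* (95% interval -0.012 to 0.656, adjusted p = 0.285). These intervals do not show that the genotypes were alike at 30°C.

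**Figure D2:**
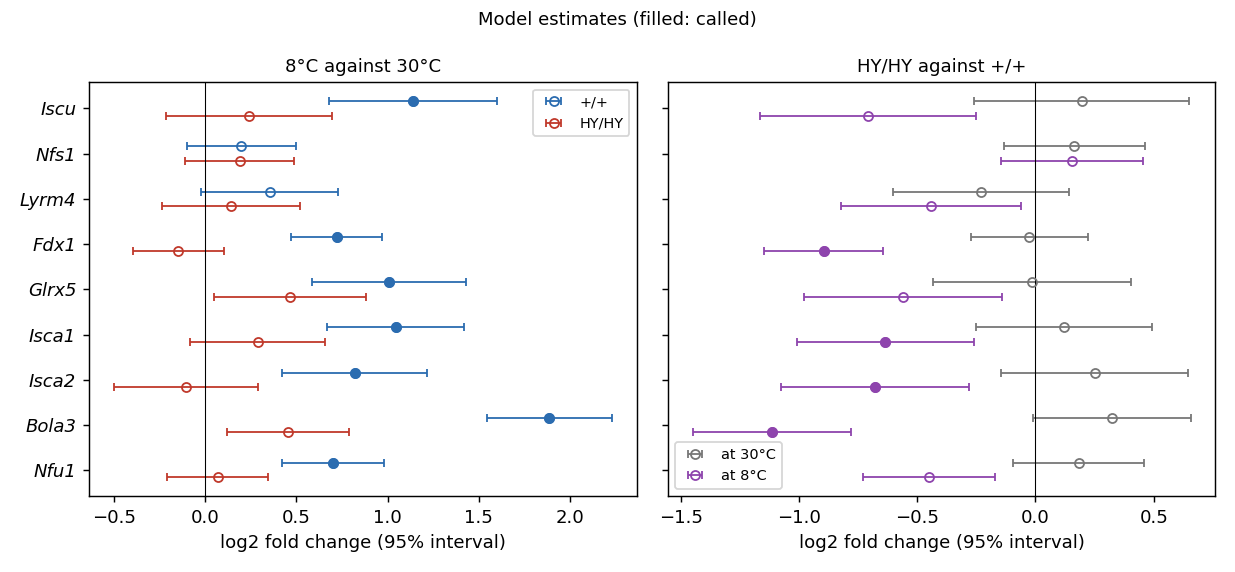
Log2 fold changes (x axis) of the 9 members from the model with their 95% intervals, on the left for 8°C against 30°C in each genotype and on the right for *Jmjd1a* HY/HY against *Jmjd1a* +/+ mice at each temperature; filled points were called. The *Jmjd1a* +/+ estimates by cold lie to the right of those of the *Jmjd1a* HY/HY mice for every member, by the least for *Nfs1*, and at 8°C all members but *Nfs1* have negative estimates.

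Subtracting the cold response of the *Jmjd1a* +/+ mice from that of the *Jmjd1a* HY/HY mice, an interaction, gave a negative value in 9 of 9 members, from -1.44 for *Bola3* to -0.01 for *Nfs1*, with a median of -0.757 against 0.043 in all genes. With library totals *Nfs1* and *Lyrm4* turned positive, at 0.209 and 0.013, and so did *Nfs1* with 1 library left out in 6 of the 12 cases. The interaction was called for 2, *Bola3* and *Fdx1*, where 2.07% of all genes had a called negative difference. *Isca2* (-0.93, adjusted p = 0.0946), *Iscu* (-0.90, adjusted p = 0.164), *Isca1* (-0.76, adjusted p = 0.151) and *Nfu1* (-0.63, adjusted p = 0.104) did not pass. With DESeq2 the count was 4, with *Isca2* (adjusted p = 0.0256) and *Nfu1* (0.0372) added. Without replicate 1 of the *Jmjd1a* HY/HY mice at 30°C, which had the lowest level of its group in 7 of 9 members, it was 5, with *Isca1* (0.0249), *Isca2* (0.0226) and *Nfu1* (0.0151) added. It was 1, *Bola3* alone, without each of the 7 libraries named for *Fdx1*.

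Other factors of the mitochondrial pathway, 13 genes, comprise chaperones, carriers and accessory proteins. The shares of all genes given above with the members are those to set beside the counts of this and the following lists. By cold in the *Jmjd1a* +/+ mice 6 of 13 rose and 0 fell, with a median log2 fold change of 0.445 (with library totals 4 were called higher and 3 lower). Among the 6 that rose were *Ndufab1* (1.68, adjusted p = 9.36e-05), the acyl carrier protein that binds the desulfurase complex, the chaperone *Hspa9* (1.46, adjusted p = 0.000117) and its exchange factor *Grpel1* (1.56, adjusted p = 4.23e-05), and *Iba57* (0.85, adjusted p = 0.0118), which acts with ISCA1 and ISCA2.

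The remaining 7 partners were not called by cold in the *Jmjd1a* +/+ mice. Ferredoxin reductase *Fdxr*, which feeds electrons to the ferredoxins, stood at 19.1 ± 2.11 CPM at 30°C and, in the cold, 18.6 ± 0.44 CPM (log2 fold change -0.04, adjusted p = 0.847), beside the rise of *Fdx1*. The co-chaperone *Hscb*, which brings HSPA9 to ISCU, showed -0.28 (adjusted p = 0.17). The iron importers *Slc25a37* and *Slc25a28* showed -0.30 (adjusted p = 0.0422, under the fold limit) and -0.21 (adjusted p = 0.229), and *Nubpl* and *Bola1* of 0.45 and 0.01 (adjusted p = 0.0912 and 0.965). *Fdx2*, the other mitochondrial ferredoxin, had 2 to 17 counts per library. The annotated lncRNA *Gm38431* spans it, so its counts may be too low and its log2 fold change of -1.18 (adjusted p = 0.114) is uncertain.

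At 8°C 5 of the 13 partners were lower in the *Jmjd1a* HY/HY mice. They included *Ndufab1* (-1.23, adjusted p = 0.00286), *Hspa9* (-0.71, adjusted p = 0.0219), *Grpel1* (-0.64, adjusted p = 0.0187) and *Hscb* (-0.58, adjusted p = 0.0349). The difference between the cold responses was called for 4, among them *Ndufab1* (-1.49, adjusted p = 0.0146), *Hspa9* (-1.05, adjusted p = 0.0377) and *Grpel1* (-0.85, adjusted p = 0.0482). With library totals these counts were 3 and 2. The first count was 3 without replicate 2 and 2 without replicate 3 of the *Jmjd1a* +/+ mice at 8°C, and 2 without any of the *Jmjd1a* HY/HY mice at 8°C. The second fell to 0, 1 or 2 without any single library other than replicate 3 of the *Jmjd1a* +/+ mice and replicate 1 of the *Jmjd1a* HY/HY mice at 30°C. By cold 0 of 13 were called in the *Jmjd1a* HY/HY mice with edgeR, with 4 at an unadjusted p under 0.05, 1 with DESeq2 or with the replicate number as a block, and 2 without replicate 3 at 30°C. At 30°C 0 of 13 were called between the genotypes, with 3 at an unadjusted p under 0.05 and 0 with DESeq2.

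Mitochondrial proteins that carry the clusters, 16 genes, had a higher median response to cold than the genes that assemble them. By cold in the *Jmjd1a* +/+ mice 12 of 16 rose and 0 fell, with a median log2 fold change of 1.414. The rises included those of *Etfdh* (2.55), which passes electrons from fatty acid oxidation to ubiquinone, the Rieske protein *Uqcrfs1* of complex III (2.07), *Sdhb* of complex II (1.90), the complex I subunits *Ndufs8* (1.99), *Ndufv2* (1.73), *Ndufv1* (1.55), *Ndufs1* (1.28) and *Ndufs7* (1.09), the mitoNEET family members *Cisd3* (1.81) and *Cisd1* (1.11), and lipoyl synthase *Lias* (0.62). Ferrochelatase *Fech* stood at 0.58 (adjusted p = 0.0355, under the fold limit), and *Cdk5rap1*, *Glrx2* and *Mocs1* of 0.36, 0.28 and 0.07 (adjusted p = 0.345, 0.0811 and 0.888).

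In the *Jmjd1a* HY/HY mice 0 of the 16 were called by cold with edgeR, although 14 had positive log2 fold changes and the median was 0.444. At an unadjusted p under 0.05 there were 8, DESeq2 called 2, the fit with the replicate number as a block called 1, library totals gave 1, and without replicate 3 of the mice at 30°C the count was 7. At 8°C 9 of the 16 were lower in the *Jmjd1a* HY/HY mice, among them *Cisd3* (-1.55), *Ndufs8* (-1.33), *Uqcrfs1* (-1.27), *Sdhb* (-1.23), *Ndufv2* (-1.21), *Etfdh* (-1.03), *Ndufs7* (-0.97) and *Ndufv1* (-0.84), while 0 were higher (1 with library totals, 1 with the replicate number as a block, and 1 without replicate 3 of the *Jmjd1a* HY/HY group at 30°C). The count of 9 lower was 8, 7 and 6 without replicates 1, 2 and 3 of the *Jmjd1a* +/+ mice at 8°C. It was 6, 7 and 6 without replicates 1, 2 and 3 of the cold *Jmjd1a* HY/HY mice. The difference between the cold responses was called for 6, among them *Cisd3* (-2.07, adjusted p = 0.0047), *Ndufs8*, *Uqcrfs1*, *Sdhb* and *Ndufv2*. It was called for 10 with DESeq2, for 3 without replicates 1 or 2 of the *Jmjd1a* +/+ mice at 30°C, replicates 2 or 3 of those at 8°C or replicate 3 of the cold *Jmjd1a* HY/HY mice, and for 2 without replicate 1 of the latter. At 30°C 0 of 16 were called between the genotypes, with 4 at an unadjusted p under 0.05, 0 with DESeq2 and 1 without replicate 1 of the *Jmjd1a* HY/HY mice at 30°C. *Cisd3* was at 137 ± 8.39 CPM (SD, n = 3) in the *Jmjd1a* +/+ mice at 8°C and at 46.6 ± 2.76 CPM in the *Jmjd1a* HY/HY mice, where its level at 30°C was 55.8 ± 10.7 CPM.

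**Figure D3:**
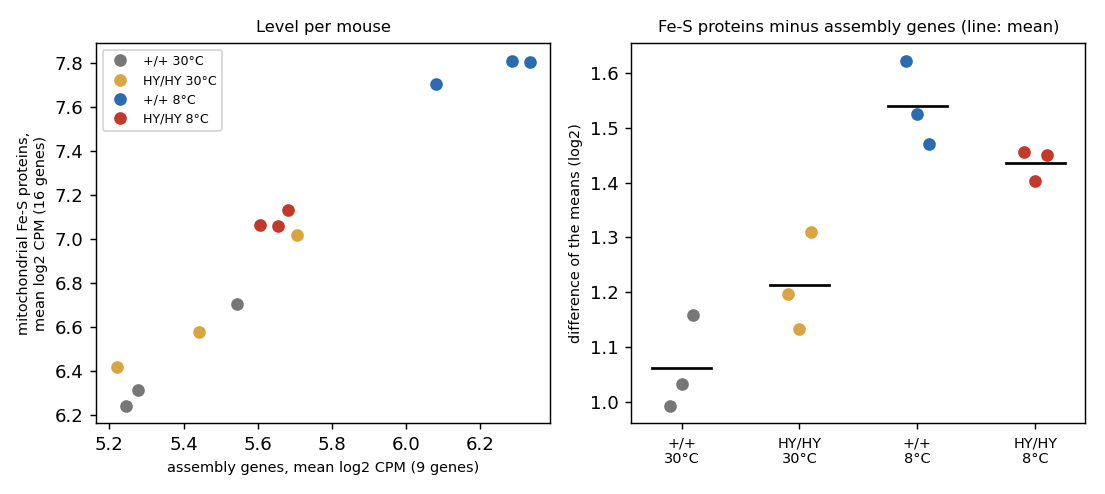
On the left, the mean log2 CPM of the 16 mitochondrial iron-sulfur proteins (y axis) against that of the 9 assembly genes (x axis) in each mouse; on the right, the first mean minus the second, with lines at the group means. The mice at 8°C lie between 1.404 and 1.623 on the right and those at 30°C between 0.992 and 1.31.

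The mean log2 CPM of the clients exceeded that of the assembly genes by 1.061 ± 0.087 (SD, n = 3) in the *Jmjd1a* +/+ mice and 1.214 ± 0.089 in the *Jmjd1a* HY/HY group at 30°C. At 8°C the difference was 1.539 ± 0.077 and 1.437 ± 0.028, and every mouse at 8°C was above every mouse at 30°C in both genotypes. The genotypes overlapped at 30°C, and at 8°C the *Jmjd1a* +/+ mice (1.47 to 1.623) lay above the *Jmjd1a* HY/HY mice (1.404 to 1.456). The level of the assembly genes themselves was 6.082 to 6.334 on this scale in the cold *Jmjd1a* +/+ mice and 5.607 to 5.682 in the cold *Jmjd1a* HY/HY mice, against 5.22 to 5.705 in the mice at 30°C of both genotypes. The cold *Jmjd1a* HY/HY mice thus lay within the range of the mice at 30°C for the assembly genes and above that range for their clients relative to them. For the assembly genes the upper end of the range, 5.705, was replicate 3 of the *Jmjd1a* HY/HY mice at 30°C alone. All other mice at 30°C reached at most 5.544, below every cold *Jmjd1a* HY/HY mouse.

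Assembly of clusters in the cytosol uses another set of proteins, of which 11 were tested. By cold in the *Jmjd1a* +/+ mice 4 of 11 rose and 1 fell, with a median log2 fold change of 0.407. *Ciapin1* (1.65, adjusted p = 1.71e-05), which passes electrons to the cytosolic scaffold, rose from 24.2 ± 1.85 to 76 ± 4.74 CPM (SD, n = 3), and *Ciao2a* (0.92, adjusted p = 0.000213), *Ciao2b* (0.87, adjusted p = 0.0032) and *Ciao3* (0.82, adjusted p = 0.000993), which act in targeting clusters to clients, rose less. *Mms19*, another targeting factor, fell by 0.62 on the log2 scale (adjusted p = 0.000678), a call not made without replicate 2 of the *Jmjd1a* +/+ mice at 30°C. With library totals 1 of the 11 was called higher. At 8°C 3 were lower in the *Jmjd1a* HY/HY mice, *Ciapin1* (-1.33, adjusted p = 0.000626), *Ciao3* (-0.62, adjusted p = 0.0141) and *Ciao2a* (-0.58, adjusted p = 0.0118), and 1 was with library totals, without replicates 2 or 3 of the *Jmjd1a* +/+ mice or without replicate 1 of the *Jmjd1a* HY/HY mice at 8°C. The cold response of *Ciapin1* differed between the genotypes by -1.31 (adjusted p = 0.00788), and the count of such genes was 3 with DESeq2 and 3 without replicate 1 of the *Jmjd1a* HY/HY group at 30°C, and was 2 without replicate 3 of the *Jmjd1a* +/+ group at 30°C. In the *Jmjd1a* HY/HY mice 0 of 11 were called by cold with edgeR (4 at an unadjusted p under 0.05, 0 with DESeq2), and at 30°C 0 between the genotypes (2 and 0).

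The 21 iron-sulfur proteins of the cytosol and nucleus showed no common direction. By cold in the *Jmjd1a* +/+ mice 3 rose, the helicase *Brip1* (1.39), the polymerase subunit *Pole* (0.95) and the nuclease *Dna2* (0.62), 3 fell, the helicases *Ddx11* (-0.79) and *Ercc2* (-0.77) and the glycosylase *Nthl1* (-0.64), and the median was 0.148. Of all genes tested 10.3% were called higher and 6.93% lower in this comparison. These small counts depend on single libraries of the *Jmjd1a* +/+ mice. The number higher was 0 without replicate 2 at 30°C or replicate 3 at 8°C and 1 without replicate 1 at either temperature, and the number lower was 1 without replicates 1 or 2 at 30°C or replicate 2 at 8°C. With library totals 1 was higher and 6 were lower. At 8°C xanthine dehydrogenase *Xdh* was higher in the *Jmjd1a* HY/HY mice (0.86, adjusted p = 0.0234), a call not made without any of the *Jmjd1a* +/+ mice or without replicates 1 or 3 of the *Jmjd1a* HY/HY mice at 8°C. By cold in the *Jmjd1a* HY/HY mice 0 of 21 were called with edgeR (3 at an unadjusted p under 0.05, 0 with DESeq2, 1 without replicate 3 at 30°C), and between the genotypes at 30°C 0 were called (2 at an unadjusted p under 0.05, 1 with DESeq2, 1 without replicate 3 of the *Jmjd1a* +/+ mice). For the difference between the cold responses 0 were called (5 at an unadjusted p under 0.05, 1 with DESeq2).

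**Figure D4:**
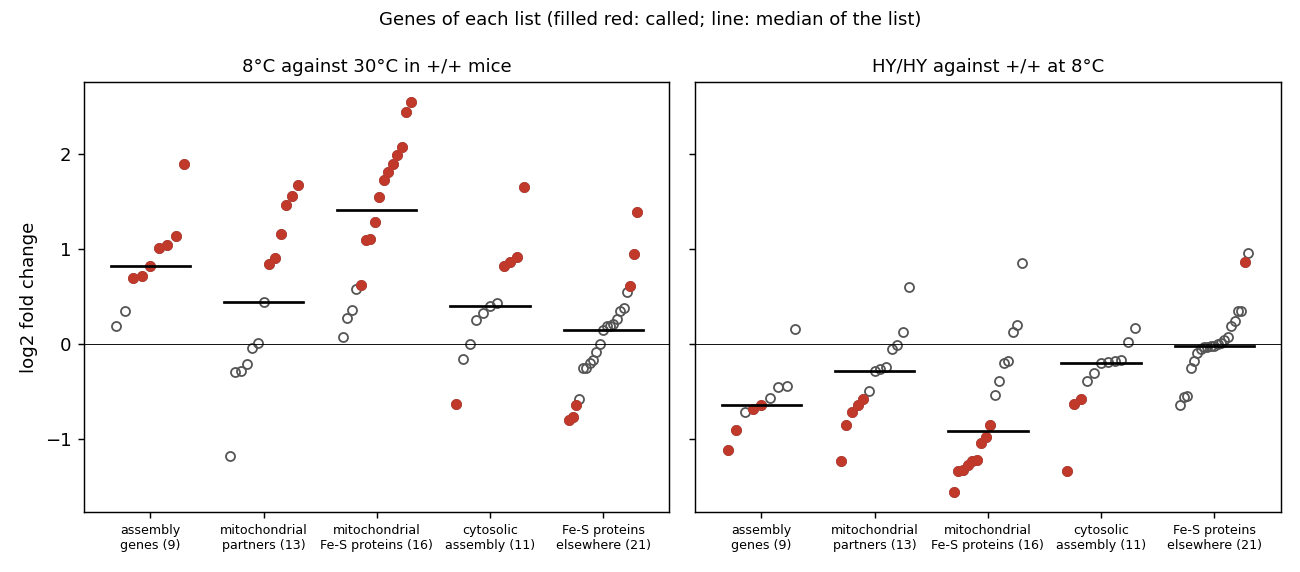
Log2 fold change (y axis) of each tested gene of the 5 iron-sulfur lists, on the left for 8°C against 30°C in *Jmjd1a* +/+ mice and on the right for *Jmjd1a* HY/HY against *Jmjd1a* +/+ mice at 8°C; filled points were called and lines mark the list medians. On the left the medians run from 1.414 in the mitochondrial iron-sulfur proteins to 0.148 in those elsewhere in the cell, and on the right from -0.91 to -0.019.

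The genes whose log2 CPM followed the members most closely over the 12 libraries, among 10778 genes averaging 100 counts or more, were *Fh1* (Pearson's r = 0.991), *Idh3b* (0.987), *Mrpl13* (0.987), *Pmm2* (0.986) and *Dnajc19* (0.985). FH1 and IDH3B are enzymes of the citric acid cycle, MRPL13 is a mitochondrial ribosomal protein, DNAJC19 belongs to the import motor of the inner membrane and PMM2 makes a sugar phosphate for glycosylation. These correlations are with the mean of the 9 standardised members. They describe libraries that share groups and were the highest of many, so no p is given.

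Markers of other cells were summed in each library. The 6 thermogenic adipocyte markers (*Ucp1*, *Cidea*, *Elovl3*, *Cox7a1*, *Cox8b* and *Dio2*) reached 8320 to 9230 CPM in the cold *Jmjd1a* +/+ mice and 524 to 1660 CPM in the cold *Jmjd1a* HY/HY mice, against 60.8 to 231 CPM at 30°C. Between the temperatures in the *Jmjd1a* +/+ mice and between the genotypes at 8°C these markers moved in the direction of most members. Between the temperatures in the *Jmjd1a* HY/HY mice all 6 markers and 7 of 9 members had positive log2 fold changes. There 3 of the 6 markers were called higher at 8°C (median log2 fold change 2.899), and 0 of 9 members were called (median 0.187). In the *Jmjd1a* +/+ mice too the markers changed more than the members, with medians of 6.06 and 0.82. The part of thermogenic cells in the member levels was not tested. The 7 white adipocyte markers summed to 28700 to 35300 CPM in the cold *Jmjd1a* +/+ and 35000 to 45800 CPM in the cold *Jmjd1a* HY/HY mice, with overlap. At 30°C they summed to 22400 to 42300 CPM in the *Jmjd1a* +/+ and 21800 to 48000 CPM in the *Jmjd1a* HY/HY mice. The sums of the 6 macrophage markers did not overlap between the genotypes at 8°C, at 109 to 118 CPM in the *Jmjd1a* +/+ and 160 to 242 CPM in the *Jmjd1a* HY/HY mice, in the direction opposite to the members. Nor did the sums at 30°C, at 124 to 142 and 146 to 246 CPM with a narrow gap, where no member was called. Taken singly, *C1qb* overlapped at 8°C, and *Cd68*, *Csf1r*, *C1qa* and *C1qb* overlapped at 30°C. The part of macrophages was not tested.

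The 4 erythroid markers matched, of 6 listed, ran from 96 to 247 CPM in the *Jmjd1a* +/+ mice at 30°C, 120 to 348 in the *Jmjd1a* HY/HY group at that temperature, 241 to 329 in the cold *Jmjd1a* +/+ and 118 to 236 in the cold *Jmjd1a* HY/HY mice, and their part was not tested. The 7 skeletal muscle markers reached 1290 CPM in replicate 2 of the *Jmjd1a* +/+ mice at 30°C and 3.56 to 23.1 CPM in all other libraries. Without replicate 2 of that group 7 of 9 members were called higher by cold in the *Jmjd1a* +/+ mice. The 7 mammary epithelium markers summed to 2430 to 4080 CPM in the *Jmjd1a* +/+ mice and 598 to 1680 CPM in the *Jmjd1a* HY/HY mice at 30°C, where no member was called, and to 1500 to 1730 and 798 to 1360 CPM at 8°C, with *Wap* at 0 in 11 libraries. The 7 lymphocyte markers stayed between 3.78 and 16.7 CPM. The part of muscle, mammary epithelium and lymphocytes in the member levels was not tested.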

How the data were processed

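Subcutaneous white adipose tissue of 12 mice was sequenced as paired 50-base reads on an Illumina HiSeq from TruSeq libraries. The authors trimmed the reads with fastp and aligned them with STAR to mm10 with GENCODE M25, and the labels also name FastQC and StringTie; versions are not given in the sources used here. The authors deposited raw counts of read pairs per gene and strand, and the sense-strand counts were used. Pairs that aligned to several places (26.7% to 32.2%) or to several genes (0.93% to 1.1%), unaligned pairs (25.1% to 28.8%) and pairs outside genes (1.99% to 3.2%) were kept out of library sizes. Of 55401 gene IDs 32589 were paired with a symbol, and of 116 listed genes 114 were matched. Positions and promoters are those of RefSeq on GRCm38.p6. Exon lengths come from GENCODE M1.

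Counts were fitted with edgeR 4.0.16 under R 4.3.3 (filterByExpr, TMM with factors from 0.859 to 1.17, 1 mean per group, quasi-likelihood test, 8 residual degrees of freedom, Benjamini-Hochberg adjustment over 16540 genes). Calls needed an adjusted p under 0.05 together with a fold change over 1.5 or under 0.67, the interaction only the former. The p-values are two-sided. The 5 comparisons were cold in each genotype, genotype at each temperature and their interaction. Library totals, RLE, mitochondrial DNA genes left out, DESeq2 1.42.0, other filters, both strands, fewer libraries in the fit, a replicate block and each library left out were tried. The fit was tested on simulated data. The members, lists and tests were chosen with earlier results of these data known. Named are all members, partners and mitochondrial clients (some genes, counted in their lists, are not reported here), called genes of the other lists, the 5 genes most like the members, *Kdm3a* and marker genes.

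The labels number the mice 1 to 3 in each group without saying what a number shares. Deviations of same-numbered mice from their group means correlated at 0.112, 0.199 and 0.303 between the temperatures in *Jmjd1a* HY/HY mice, where mice of unlike number reached 0.086. Between the genotypes at 30°C same-numbered mice reached 0.346 and mice of unlike number 0.184. Whether the numbers pair mice cannot be told from these values. The main fit did not pair them, and counts with the replicate number as a block are given beside it. In the other comparisons the lowest value of same-numbered mice was negative (-0.044 for cold in *Jmjd1a* +/+ mice, -0.042 for the genotypes at 8°C and -0.055 at 30°C). If the mice of a group share a litter or batch, the p-values measure less than the spread between independent mice.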

Additional observations from a re-analysis of the deposited data

Results flagged for a closer look

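The cold responses of 2 members differed between the genotypes by the interaction test of edgeR over all genes. For *Bola3* the response of the *Jmjd1a* HY/HY mice minus that of the *Jmjd1a* +/+ mice was -1.436 on the log2 scale (adjusted p = 0.0113), and all 3 cold *Jmjd1a* HY/HY mice lay below all 3 cold *Jmjd1a* +/+ mice. For *Fdx1* it was -0.87 (adjusted p = 0.0218), with the same separation, and its call depended on single libraries.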

How the results depend on the processing

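Of 936 values recomputed for the members under 21 alternatives, 871 kept their direction and side of the limit, 29 lost a call, 15 gained one and 21 changed sign, the last all of members not called either way. With library totals the sign changes were *Nfs1* by cold in *Jmjd1a* +/+ mice (-0.14) and for the interaction (0.209), *Lyrm4* for the interaction (0.013) and *Nfu1* by cold in *Jmjd1a* HY/HY mice (-0.057). Between the genotypes at 30°C *Glrx5* changed to 0.005 without a filter and to 0.009 with the libraries of the comparison only, and *Fdx1* to 0 with the latter. With each library left out the values of those that changed sign ranged from -0.274 to 0.079 for *Isca2* and from -0.066 to 0.186 for *Nfu1* by cold in *Jmjd1a* HY/HY mice, from -0.005 to 0.394 for *Iscu*, -0.07 to 0.019 for *Fdx1*, -0.265 to 0.191 for *Glrx5* and -0.036 to 0.295 for *Isca1* between the genotypes at 30°C, and from -0.103 to 0.154 for *Nfs1* in the interaction. With library totals in place of TMM the number of members higher by cold in *Jmjd1a* +/+ mice was 4, that lower in cold *Jmjd1a* HY/HY mice was 2 and that with a different cold response was 1. The shift of all genes under this scaling is given with the members. DESeq2 gave 4 members for the last. With each library left out, the counts ranged from 7 to 7 for cold in *Jmjd1a* +/+ mice, 0 to 1 in *Jmjd1a* HY/HY mice, 2 to 5 for the genotypes at 8°C, 0 to 0 at 30°C and 1 to 5 for the difference between the responses. Without replicate 3 of the *Jmjd1a* HY/HY mice at 30°C the members' median between the genotypes at 30°C was -0.005, against 0.164 with it. With the replicate number as a block the counts of members were 7, 0, 5, 0 and 3 in the same order, and over all genes 3225, 160, 1203, 514 and 526 were called, against 2854, 41, 980, 166 and 370 without it. The block added *Iscu* at 8°C (adjusted p = 0.018) and *Isca2* for the interaction (0.0193) and took away no call of a member. Apart from the construction of each alternative, the cause of these changes was not tested. Of the 9 members, depth limits *Lyrm4* most, and *Fdx2*, *Brip1*, *Dna2* and *Pole* were counted less still.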
